A study of Mus musculus with 4 samples.

Results

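The AP-1 and small Maf genes are 10 transcription factor genes, found by their symbols among the 23282 gene rows of the series. They comprise 3 genes of the Fos family (Fos, Fosb and Fosl2), 3 of the Jun family (Jun, Junb and Jund), the ATF family gene Atf3, and the 3 small Maf genes Maff, Mafk and Mafg. Each symbol had 1 row, and each gene had reads in at least 3 of the 4 libraries. The rows were picked by name and not by a measured value, although earlier results of these data were known when the list was made. In GRCm38, Fos lies at chr12:85473890-85477273, Fosb at chr7:19302696-19310051 and Fosl2 at chr5:32135801-32157842. Jun lies at chr4:95049034-95052222, Junb at chr8:84974484-84978718, Jund at chr8:70698949-70700616 and Atf3 at chr1:191170296-191218039. Maff lies at chr15:79346621-79359076, Mafk at chr5:139791513-139802653 and Mafg at chr11:120625117-120633600.

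Gastrocnemius muscle of male CDF1 mice, labelled postnatal day 28, was profiled by QuantSeq 3′ mRNA sequencing, which reads the 3′ end of polyadenylated transcripts. By the paper's methods this was the age at purchase, and tissues were taken later, at the end of the experiment. The normal control library came from mice without exercise or tumor, and the normal exercise library from mice given high-intensity aerobic exercise on a treadmill. The cancer control library came from mice injected through the tail vein with CT26 murine colorectal cancer cells, and the cancer exercise library from mice given both. A tumor seeded through the blood spreads through the body, so the muscle was not the site of injection. There was 1 library per group, and the sources differ on whether it holds RNA of 1 representative mouse or of several of the 10 mice in a group. None of the differences below therefore has a replicate check in these libraries, and no p-value is given. The paper also measured selected genes, Fos and Maff among them, by RT-qPCR in littermates. It reports changes that matched its sequencing, and those measurements are not used here.

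AP-1 is a dimer of basic leucine zipper proteins, in which a Fos protein pairs with a Jun protein or Jun proteins pair with each other, and the dimer binds a short DNA element in promoters and enhancers. Many of these genes are immediate early genes, whose transcripts appear within minutes of a growth factor, cytokine or mechanical signal and decay quickly, and in muscle they respond to contraction, injury and inflammation. Small Maf proteins lack an activation domain, so that they repress genes as homodimers and activate them when paired with factors such as NRF2, while Atf3 encodes a stress-induced factor that often represses its targets.

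The promoters of these genes were read from RefSeq (GRCm38), with the 250 bases before each transcription start and the 50 bases after it, and all 10 genes had at least 1 entry. Searching both strands, the AP-1 element TGANTCA was found in the window of 0 of the 10 genes, against 8.97% of all 27025 genes. The related element TGACNTCA, to which Jun and ATF proteins bind, was present in Jun and Maff, against 10.0% of all genes. The cyclic AMP response element core TGACGT, which overlaps the second element where both are spelled TGACGTCA, was present in Fos, Atf3, Maff and Mafg, against 8.37%. The Atf3 match is on the strand opposite to the transcript and reads ACGTCA here. For Jund the RefSeq start used here lies within chr8:70697619-70697768, upstream of the GENCODE gene start at 70698949. Its window does not reach that start, so the counts over the 10 genes do not cover it. A match is a description of letters, not of a bound site. The stretch from 120 bases before the start to 30 bases into the transcript is shown for the genes described most fully below, with the matched letters in capitals. Maff has 3 annotated starts and the middle one is shown. The positions are chr12:85473770-85473919 on the plus strand for Fos, chr4:95052193-95052342 on the minus strand for Jun, chr1:191183304-191183453 on the minus strand for Atf3 and chr15:79347400-79347549 on the plus strand for Maff.
Fos: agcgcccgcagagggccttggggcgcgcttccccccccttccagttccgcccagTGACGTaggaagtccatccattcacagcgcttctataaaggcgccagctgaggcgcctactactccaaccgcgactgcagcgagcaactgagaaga
Jun: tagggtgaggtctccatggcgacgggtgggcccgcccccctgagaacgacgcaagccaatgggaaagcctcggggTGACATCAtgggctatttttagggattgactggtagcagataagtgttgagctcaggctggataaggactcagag
Atf3: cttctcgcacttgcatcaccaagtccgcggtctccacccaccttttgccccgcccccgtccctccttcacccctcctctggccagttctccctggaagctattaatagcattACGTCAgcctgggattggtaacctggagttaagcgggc
Maff: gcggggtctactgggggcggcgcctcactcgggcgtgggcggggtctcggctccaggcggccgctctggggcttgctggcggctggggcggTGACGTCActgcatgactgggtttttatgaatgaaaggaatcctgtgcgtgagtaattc

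Short-lived transcripts often carry the pentamer ATTTA in the 3′ untranslated region, the sequence bound by mRNA decay factors such as the product of Zfp36. In GENCODE vM21, 1 main transcript per gene was searched, and all 10 genes held at least 1 pentamer, against 62.8% of 21013 protein-coding genes. Longer regions hold more of them by length alone, and per kilobase 5 of the 10 genes (Fosb, Mafg, Mafk, Fosl2 and Jund, at 0.466 to 1.88) lay below the 1.95 of all genes, while Fos had 4.91 and Junb 4.12. The longer nonamer TTATTTATT was present in Fos, Fosl2 and Maff, against 7.19% of all genes, and Maff held 2 copies. These untranslated regions ranged from 485 bases in Junb to 4653 bases in Fosl2, where the median over all genes was 849 bases. The 30 bases around a nonamer are shown for the 3 genes that hold one, with the pentamers in capitals. They lie at chr12:85477100-85477129 (Fos, plus strand), chr5:32156864-32156893 (Fosl2, plus strand) and chr15:79358777-79358806 (Maff, plus strand).
Fos: ttgtgttttcaATTTATTTAttaagatgga
Fosl2: aattgacATTTAttttattATTTAttttaa
Maff: cttccacactcttATTTAttgcacgaatct

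Levels are given as normalized read counts, in the order normal control and normal exercise, then cancer control and cancer exercise. They are reads of a gene after the scaling and quantile adjustment of the authors. Reads from the 3′ end do not grow with transcript length. The whole reads behind the values could be rebuilt, and the libraries held between 10647437 and 13226025 reads in total. Differences are between log2 values, taken after adding 1 to each level. A gene counted as changed when it differed at least 2-fold and its level was 4 or more in at least 1 of the 2 libraries compared. The interval beside a difference is a 95% Clopper-Pearson interval of the share of reads, turned into a log2 ratio. It covers counting error only.

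Most of these genes were higher in muscle of tumor-bearing mice. In cancer control against normal control, 8 of 10 were higher by at least 2-fold and 0 were lower, where 20.9% of the 14818 genes tested were higher and 24.2% lower. The median difference of the 10 genes was 2.68, against -0.04 for all genes tested. Only Jun and Mafg did not pass the threshold. Counting intervals excluded 0 for all 10 genes, as they did for 71.5% of genes tested. In cancer exercise against cancer control the direction turned, with 6 genes lower and Jun higher, where 15.1% of 14491 genes tested were lower and 15.6% higher. The median of the 10 genes was -1.53, against 0.005 for all genes tested, and counting intervals excluded 0 for all 10 genes against 63.5%. The summed level of 10 keratinocyte marker genes moved with these 2 comparisons, at 277 in normal control, 937 in cancer control and 111 in cancer exercise, and that of the neutrophil markers was 81.2, 2691 and 1994. Their part in the result was not tested.

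In normal exercise against normal control, 1 of the 10 genes (Maff) was higher and 1 (Fos) lower by at least 2-fold, a share near the background, where 9.44% of 14518 genes tested were higher and 12.1% lower. The median of the 10 genes was -0.245, against -0.01 for all genes tested, and intervals excluded 0 for 7 genes, where 56.8% of genes tested did so. In cancer exercise against normal exercise, which does not use either control library, 7 of the 9 genes that met the minimum were higher and 0 lower, where 13.9% of 14470 genes tested were higher and 16.3% lower. The median of these 9 genes was 1.62, against -0.03 for all genes tested. Intervals excluded 0 for 8 of them, against 64.2%. The exercise and tumor comparisons share libraries, so that a high value in cancer control enters both the rise with the tumor and the fall with exercise.

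**Figure D1:**
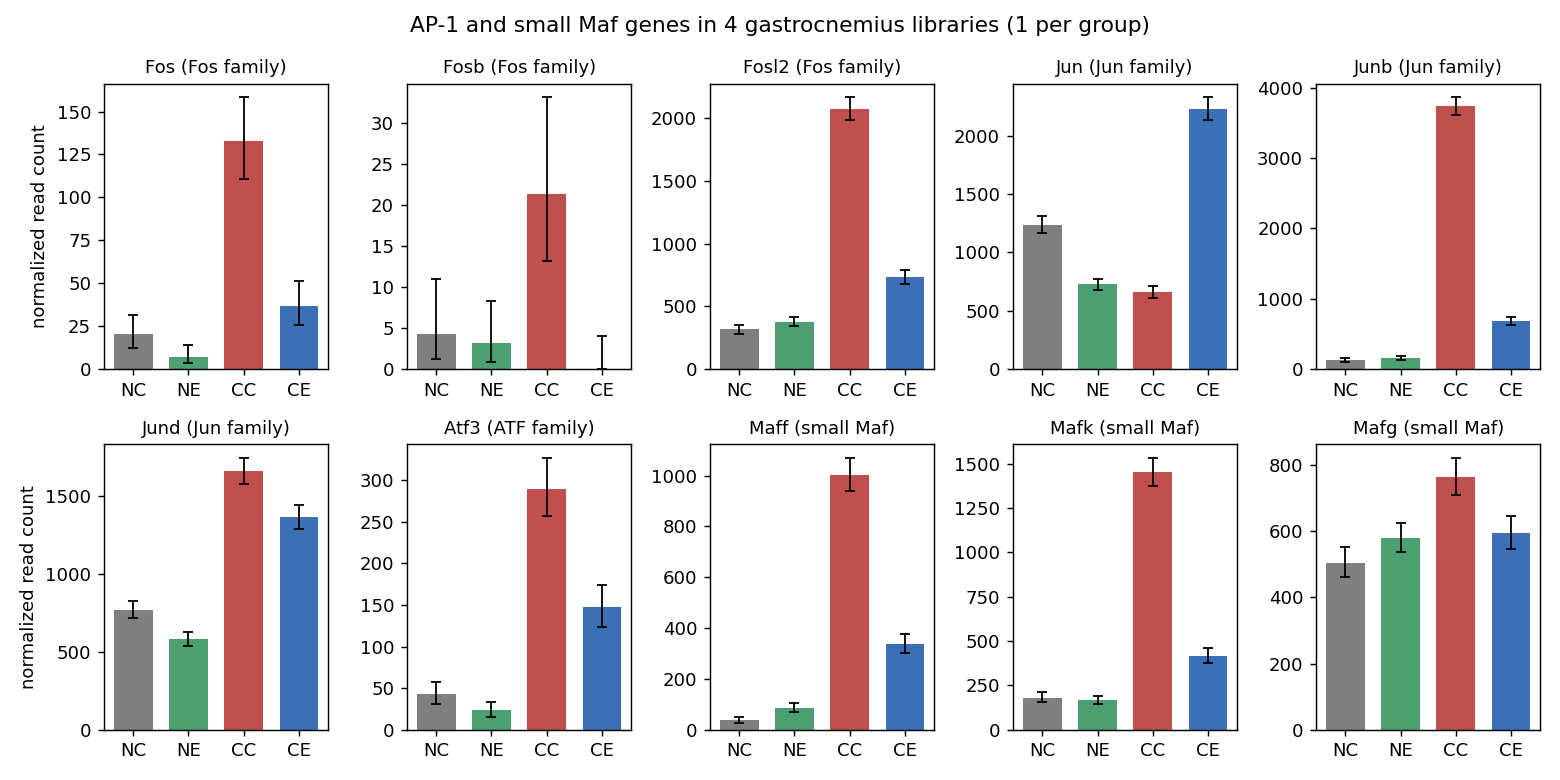
Normalized read counts (vertical axes, linear from 0 and scaled for each gene) of the 10 genes in normal control (NC), normal exercise (NE), cancer control (CC) and cancer exercise (CE), 1 library each, with 95% Poisson intervals of the reads as error bars. The cancer control bar is the tallest for 9 genes, and Jun is the exception with its tallest bar in cancer exercise.

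A common order of levels ran through the group. Cancer control held the highest level of 9 of the 10 genes, where 31.6% of the 15485 genes whose level reached 4 in any library were highest there. The order of cancer control first, cancer exercise second and both tumor-free libraries below was found in 8 of the 10 genes, against 18.5% of those genes. The exceptions were Jun and Fosb. In bulk muscle, a change in the number of cells of a type cannot be told apart from a change in RNA per cell.

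Fos, which encodes the founding partner of Jun in AP-1 and was among the genes the study selected from these libraries, had a low level in muscle. Its level was 20.3 and 7.13 in the control and exercised mice without a tumor and 133 and 36.8 in those with one. Both tumor libraries lay above both tumor-free libraries, and within each pair the exercised library was the lower. The difference with the tumor was 2.65 without exercise (interval 2.01 to 3.50) and 2.22 with exercise (1.25 to 3.58). The difference with exercise was -1.39 without a tumor (-2.80 to -0.26) and -1.82 with one (-2.44 to -1.29). It was the only member lower by at least 2-fold with exercise in both settings. These values rested on 19, 9, 124 and 34 reads, in the order set out above.

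Fosb, a Fos paralogue whose product persists in a truncated form after repeated stimulation, was near the limit of detection. It had 4 and 4 reads in the control and exercised mice without a tumor and 20 and 0 in those with one. The normalized read count of 21.3 in cancer control stood 2.08 above the 4.28 of normal control on the log2 scale (0.75 to 4.34). Against the 0 reads of cancer exercise, which were set to a floor of 3 reads in that library, cancer control was 6.59-fold higher. That value takes the 20 reads as exact. The counting interval of this log2 difference, cancer exercise minus cancer control, had no lower bound and ended at -2.29. The level in cancer exercise and normal exercise was below the minimum, so no call was made there.

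Fosl2, whose product is a stable Fos family partner of Jun proteins, supplied most of the reads of this family. Its level was 316 and 378 in the control and exercised mice without a tumor and 2076 and 735 in those with one. It stood 2.71 higher with the tumor in mice without exercise (2.54 to 2.90), a 6.55-fold difference. With exercise the tumor difference was 0.96 (0.79 to 1.13), just under the threshold. The exercise difference was 0.26 without a tumor (0.05 to 0.47) and -1.50 with one (-1.63 to -1.37). Of the reads of Fos, Fosb and Fosl2, Fosl2 made up between 92.8% and 97.3% in every library. The makeup of these 3 genes thus changed little, while their total went from 340 normalized reads in normal control to 2230 in cancer control. Fosl1, a further Fos family gene, is not in these shares and had 42 reads in cancer control, 18 in cancer exercise and 0 in both tumor-free libraries.

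The Jun family did change its makeup. Jun, the main partner of Fos proteins and a target of the JNK kinases, reached 1238 and 725 in the control and exercised mice without a tumor and 661 and 2231 in those with one. It was the only member whose highest level was in cancer exercise. The exercise difference was -0.77 without a tumor (-0.90 to -0.65), short of 2-fold, and 1.75 with one (1.63 to 1.89), a 3.37-fold higher level. The tumor difference was -0.905 without exercise (-1.05 to -0.76), also short of 2-fold, and 1.62 with exercise (1.51 to 1.74). The exercise difference with the tumor minus that without was 2.53, the only value above 1 among the 10 genes.

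Junb, which encodes a partner of Fos proteins with weaker activating power than Jun and is known for maintaining muscle fiber size, showed the largest tumor difference of the 10 genes. Its level was 124 and 154 in the control and exercised mice without a tumor and 3742 and 681 in those with one. Cancer control was 29.8-fold above normal control (4.90, interval 4.64 to 5.19), and 1.83% of genes tested differed by as much in either direction. With exercise the tumor difference was 2.14 (1.91 to 2.39). Cancer exercise was 5.49-fold below cancer control (-2.46, interval -2.58 to -2.34), while without a tumor the exercise difference was 0.30 with an interval that spanned 0 (-0.03 to 0.65).

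Jund, the most steadily expressed Jun gene and one that restrains growth in many cells, reached 769 and 579 in the control and exercised mice without a tumor and 1657 and 1363 in those with one. The 2 tumor libraries lay above the 2 tumor-free libraries by similar amounts. The tumor difference was 1.11 without exercise (0.98 to 1.24) and 1.23 with it (1.10 to 1.37), and neither exercise difference reached 2-fold (-0.41 and -0.28).

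Shares of reads put these values together, with exact binomial intervals. Junb took 5.84% of Jun family reads in normal control (95% interval 4.85 to 6.96) and 10.6% in normal exercise (9.18 to 12.1). In cancer control its share was 61.8% (60.5 to 63.0), and in cancer exercise 15.9% (14.8 to 17.1). The share of Jun went from 58.1% in normal control to 10.9% in cancer control and 52.2% in cancer exercise. Jund stayed between 27.3% and 39.7%. Cancer control was the only library in which Junb, and not Jun, supplied most of the Jun family reads.

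Atf3, a stress-induced member of the ATF family, reached 42.6 and 23.3 in the control and exercised mice without a tumor and 290 and 147 in those with one. It kept nearly all of its tumor difference under exercise, at 2.74 without exercise (2.29 to 3.29) and 2.61 with it (2.06 to 3.28). In cancer exercise against normal exercise it had the largest difference of the 10 genes, and 8.74% of genes tested differed as much. The exercise difference was -0.84 without a tumor (-1.60 to -0.13) and -0.97 with one (-1.29 to -0.68). The latter fell just short of 2-fold and passed it under total count scaling (-1.04) and median of ratios scaling (-1.004).

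Maff, the stress- and cytokine-induced small Maf gene and another gene the study selected from these libraries, was the only member at least 2-fold higher with exercise in tumor-free mice and at least 2-fold lower with exercise in tumor-bearing mice. Its level was 37.3 and 84.9 in the control and exercised mice without a tumor and 1003 and 338 in those with one. All 3 other libraries stood above normal control. The exercise difference was 1.17 without a tumor (0.63 to 1.79) and -1.57 with one (-1.76 to -1.38). The tumor difference was 4.71 without exercise (4.27 to 5.28), a 26.2-fold difference, and 1.98 with it (1.67 to 2.32).

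Mafk, a small Maf gene expressed in many tissues, was nearest to Fosl2 in profile. Its level was 181 and 164 in the control and exercised mice without a tumor and 1452 and 417 in those with one. The tumor difference was 2.998 without exercise (2.77 to 3.24) and 1.34 with it (1.09 to 1.59). The exercise difference was -1.80 with the tumor (-1.97 to -1.64), and that without a tumor was -0.14 (-0.44 to 0.17), whose sign turned under total count scaling (0.02).

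Mafg, a common partner of NRF2, differed least. Its level was 505 and 580 in the control and exercised mice without a tumor and 763 and 595 in those with one, and none of its 4 differences reached 2-fold. The largest was 0.59 with the tumor in mice without exercise (0.43 to 0.77), and the value in cancer exercise against normal exercise was 0.04 with an interval spanning 0 (-0.13 to 0.20). Mafg supplied 69.9% of small Maf reads in each of the tumor-free libraries, against 23.7% and 44.1% in the control and exercised mice with a tumor. In cancer control Mafk supplied 45.1% and Maff 31.2% of them, where the summed small Maf level was 3219 normalized reads against 723 in normal control.

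**Figure D2:**
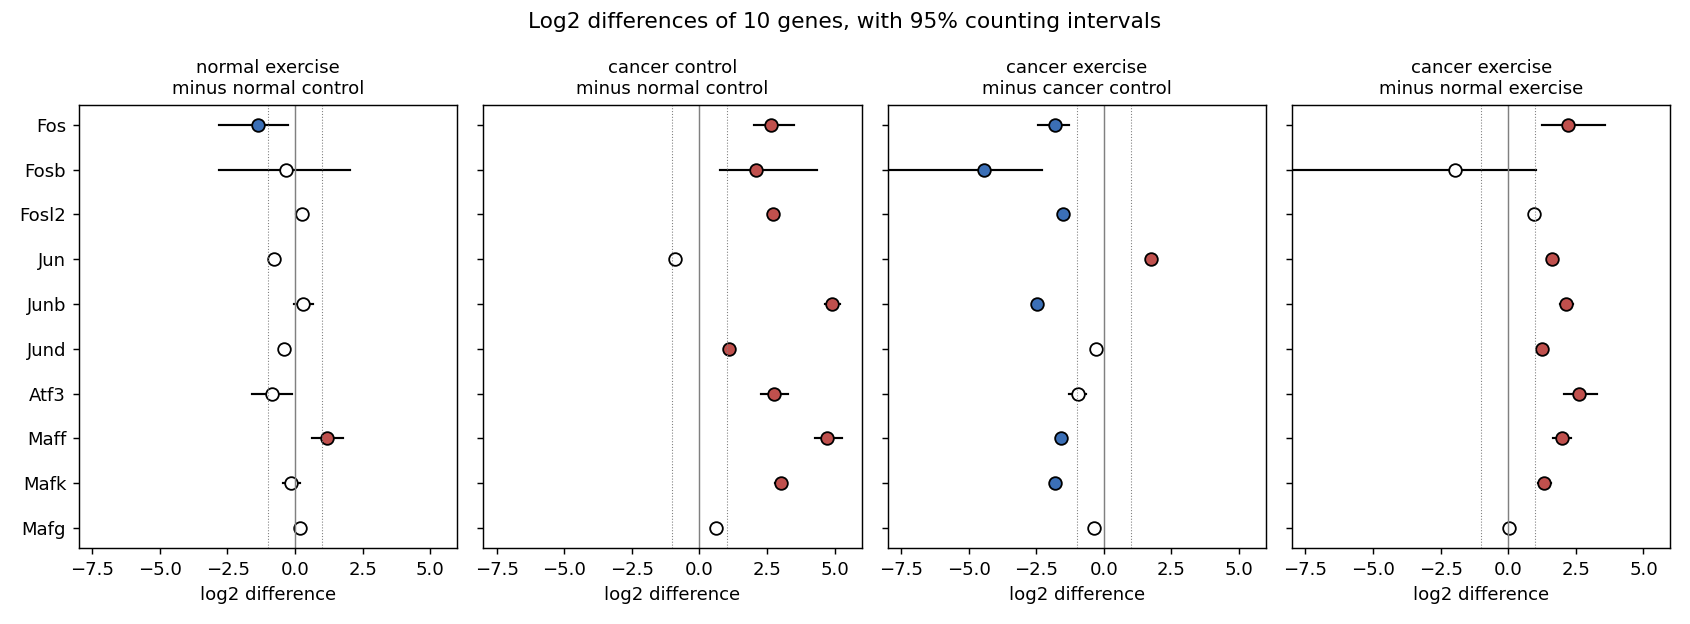
Log2 differences (horizontal axes) of the 10 genes in the 4 comparisons, as points with 95% counting intervals as lines. Red points were at least 2-fold higher, blue points at least 2-fold lower, open points neither, the dotted lines mark 2-fold, and lines for Fosb that run to the left edge have no lower bound because cancer exercise had 0 reads. There are 8 red points in cancer control minus normal control, and 6 blue points and 1 red point in cancer exercise minus cancer control.

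The tumor fold with exercise, as a percent of the tumor fold without it, varied among the members. This ratio of 2 folds was 14.8% for Junb, 15.04% for Maff, 29.7% for Fosl2 and 31.6% for Mafk. For Fos the value was 74.1%, for Atf3 91.3% and for Jund 109%. It is not the part of a log2 difference that was left. Mafg had 67.9%, while its tumor difference was 0.59 without exercise and 0.04 with it. Jun had 576%, with tumor differences of opposite sign, and Fosb is left out because it had 0 reads in cancer exercise. The exercise difference with the tumor minus that without was -2.76 ± 0.18 for Junb, -2.73 ± 0.30 for Maff, -1.75 ± 0.12 for Fosl2 and -1.66 ± 0.17 for Mafk, with counting error as the SE. It was -0.43 ± 0.65 for Fos, -0.13 ± 0.38 for Atf3 and 0.13 ± 0.09 for Jund, whose sign turned under total count scaling (-0.10). This difference of differences was not tested, since each group had 1 library.

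The profiles over the 4 libraries can be set beside each other as a description. On centred log2 values, the closest pairs of members were Fosl2 with Mafk (Euclidean distance 0.48), Atf3 with Fos (0.75) and Junb with Maff (0.89). Among 12046 other genes with a mean level of 16 or more, the genes nearest to Fos were Rhbdf2 (distance 0.17), Cenpf (0.28) and Zfp52 (0.30). Those nearest to Maff were 2810417H13Rik (0.16), 1700101I11Rik (0.28) and Tgif1 (0.38). Of these, 2810417H13Rik had a level of 2.18 in normal control, below the minimum of 4, and 6.33 in normal exercise. Each profile has 4 points.

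**Figure D3:**
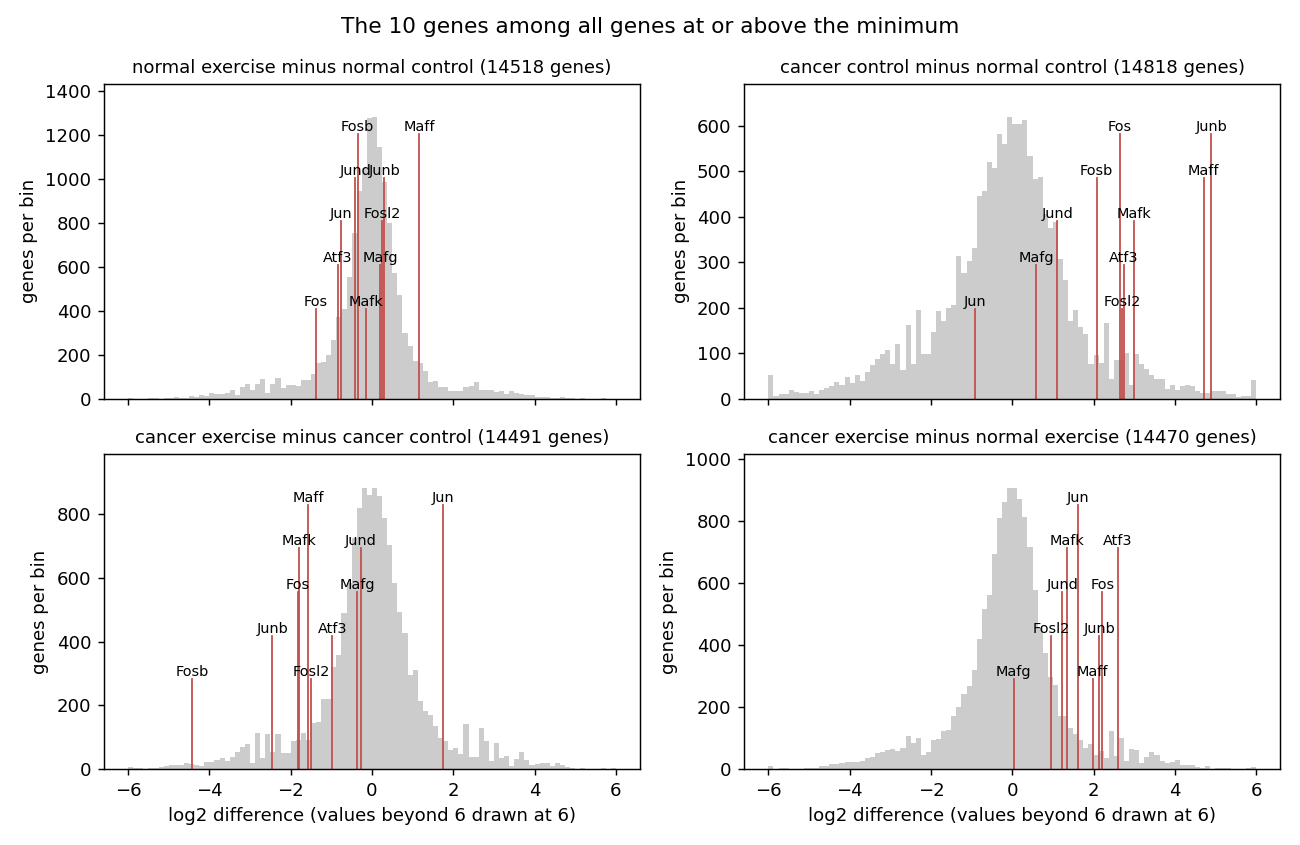
Histograms of the log2 differences (horizontal axes, values beyond 6 drawn at 6) of all genes at the minimum, with genes per bin on the vertical axes and the members marked by red lines whose heights only separate the names. Junb and Maff lie in the right tail of cancer control minus normal control, at 4.90 and 4.71, where 1.83% and 2.14% of genes differed as much in either direction.

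Counting error understates how much 2 muscle libraries differ. Over genes with a mean of 8 to 64 reads, the median squared difference between libraries was between 8.33 and 17.8 times that of counting noise, depending on the comparison, and this index holds both biological and technical differences. When reads were divided by that index, intervals excluded 0 for 7 genes in cancer control against normal control, namely Fosl2, Jun, Junb, Jund, Atf3, Maff and Mafk. The share of all genes tested whose widened interval excluded 0 was not computed, so these counts have no background. For exercise with the tumor they excluded 0 for Fosl2, Jun, Junb, Maff and Mafk. For exercise without a tumor Jun alone remained (-1.15 to -0.40), although 28.7% of genes tested differed as much. The intervals of Fos (-6.97 to 2.50) and Maff (-0.49 to 3.22) spanned 0. Jun had 894 reads in normal exercise and 1164 in normal control, far above the 8 to 64 reads behind the index. The other genes that remained also had means above that range. Whether the index is large enough at such depth was not tested. All 10 muscle fiber genes also kept intervals that excluded 0 in this comparison.

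Other genes of the AP-1 pathway were compared by lists. Of 8 further bZIP genes whose proteins pair with Fos, Jun or Atf3, all met the minimum in cancer control against normal control, and 4 were higher and 1 lower, with a median of 0.72. Over all genes tested, 20.9% were higher and 24.2% lower. Fosl1, a Fos family gene induced in strongly stimulated cells, had 0 reads in both tumor-free libraries, with 42 in cancer control and 18 in cancer exercise. Against a floor of 3 reads, and with the 42 reads taken as exact, cancer control was 14.1-fold above normal control. Atf4, the effector of the integrated stress response, reached 4254, 4990, 9680 and 5901 in the order set out above. The others that passed were Batf and Batf3 (higher) and Batf2 (lower), named here after their values were seen, and all 3 had levels of at most 24.4 in any library. Atf2 and Atf7 did not reach 2-fold in any comparison.

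Among 6 CNC and Bach genes, whose products pair with small Maf proteins, Bach1 and Bach2 were the 2 of 4 at the minimum that were higher with the tumor in mice without exercise, and 0 were lower. Over all genes tested, 20.9% were higher and 24.2% lower. Bach2, a repressor known from lymphocytes, reached 13.9, 22.5, 133 and 133 in the order set out above. It differed by 3.17 with the tumor without exercise and by 2.51 with it. Bach1, the repressor of Hmox1, had 209, 121, 429 and 273 in the same order. Nfe2l2, which encodes NRF2, and Nfe2l1 did not reach 2-fold in any comparison, at most 0.59 from 0.

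The large Maf genes carry an activation domain and set cell identity. Maf reached 1574 and 1736 in the control and exercised mice without a tumor and 322 and 612 in those with one. It was lower in both tumor libraries, with differences of -2.28 without exercise and -1.50 with it. Mafa had 1 read in normal control and 0 elsewhere.

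Upstream of AP-1, 2 of 15 kinase and transcription factor genes were higher and 2 lower in cancer control against normal control, where 20.9% and 24.2% of all genes tested were, with a median of -0.17. Map2k2 and Mapk3, of the ERK cascade, and Srf, which acts at the Fos promoter, did not reach 2-fold in any comparison. Elk4, a partner of Srf, differed by 2.06 with the tumor and by -1.26 with exercise added, on 28 reads in cancer control and 11 in cancer exercise. Of 11 genes that restrain AP-1, 1 was higher and 2 lower among 9 at the minimum. Fbxw7, which marks Jun for degradation, differed by -1.48 and Dusp10, a phosphatase of stress kinases, by -2.92, and Zfp36, named here after its values were seen, was the gene that was higher. Dusp1 and Zfp36l1 stayed within 2-fold in all comparisons.

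Among 14 textbook AP-1 targets, 8 of the 11 at the minimum were higher in cancer control than in normal control and 0 were lower, with a median of 2.03. Of all genes tested, 20.9% were higher and 24.2% lower. With exercise added, 6 of 11 were lower and 1 higher, with a median of -1.19, where 15.1% of all genes tested were lower and 15.6% higher. Timp1, an inhibitor of matrix proteases, reached 14.9 and 38.0 in the control and exercised mice without a tumor and 154 and 46.6 in those with one. Ccl2, a chemokine that draws monocytes, had 18.1, 43.0, 82.3 and 23.9 in the same order. Both genes, like Maff, were higher with exercise without a tumor (1.29 and 1.20) and lower with exercise in tumor-bearing mice (-1.70 and -1.74). Ccnd1, which encodes a cyclin of the cell cycle start, had 324, 131, 776 and 176. Plaur, the urokinase receptor gene, had 0 reads in both tumor-free libraries, 28 in cancer control and 7 in cancer exercise. Spp1 and Mmp3 were higher with the tumor in both settings, at 2.02 and 1.90, and 2.57 and 2.34 on the log2 scale. Vegfa was the gene that was higher with exercise in tumor-bearing mice (1.11), and Plau stayed within 2-fold.

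Of 11 genes controlled through antioxidant elements, where small Maf proteins pair with NRF2 or BACH1, 5 were higher and 1 lower in cancer control against normal control, with a median of 0.64. Over all genes tested, 20.9% were higher and 24.2% lower. With exercise added 3 were lower and 0 higher, where 15.1% of all genes tested were lower and 15.6% higher. Hmox1, the heme oxygenase gene, reached 23.5, 28.2, 239 and 74.7 in the order set out above. Gsr, the glutathione reductase gene, had 307, 499, 830 and 536. Slc7a11, which encodes a cystine transporter, had 12, 7, 25 and 0 reads. Fth1 and Srxn1 did not reach 2-fold in any comparison.

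Among other immediate early genes the 2 tumor comparisons were alike in count. In cancer control against normal control 7 of 16 were higher and 0 lower (median 0.91), while in cancer exercise against normal exercise 7 were higher and 1 lower (median 0.82). Over all genes tested, 20.9% were higher and 24.2% lower in the former, and 13.9% and 16.3% in the latter. With exercise added in tumor-bearing mice 3 of 16 were lower and 0 higher (median -0.27), where 15.1% of all genes tested were lower and 15.6% higher. Btg2, an antiproliferative gene, reached 122 and 102 in the control and exercised mice without a tumor and 2861 and 740 in those with one, an order of levels close to that of Junb. Csrnp1 had 11.8, 11.2, 291 and 148, close to the order of Atf3. Myc had 1.11, 3.09, 37.4 and 44.3. Nr4a3 had 10.7, 17.7, 96.3 and 124 in the same order, and neither gene was lower in cancer exercise than in cancer control. Nr4a2 had 27.7, 2.28, 35.3 and 53.0, with 3 reads in normal exercise, and Egr2 had 10.6, 22.1, 12.9 and 4.39. In cancer exercise against normal exercise, Nr4a2 had the largest difference of this list and Egr2 was the gene that was lower. Klf2 and Klf6 stayed within 2-fold in all comparisons.

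The remaining comparisons of these lists gave small counts. Over all genes tested, 15.6% were higher and 15.1% lower in cancer exercise against cancer control. These shares were 9.44% and 12.1% in normal exercise against normal control, and 13.9% and 16.3% in cancer exercise against normal exercise. In cancer exercise against cancer control, 1 of 8 bZIP partners was higher and 2 lower, 0 of 4 small Maf partners passed, 1 of 15 upstream genes was higher and 2 lower, and 2 of 10 restraining genes were higher. In normal exercise against normal control, leaving aside the large Maf genes, at most 2 genes of each of the other 7 lists were higher and at most 2 lower, with medians between -0.26 (other immediate early genes) and 0.24 (upstream). In cancer exercise against normal exercise, 4 of 11 AP-1 targets were higher and 0 lower (median 0.64), and 1 of 11 antioxidant-element genes was higher and 1 lower (median 0.11). In the same comparison 2 of 8 bZIP partners were higher and 2 lower, 2 of 5 small Maf partners higher and 1 lower, 1 of 14 upstream genes higher, and 2 of 10 restraining genes higher and 1 lower.

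**Figure D4:**
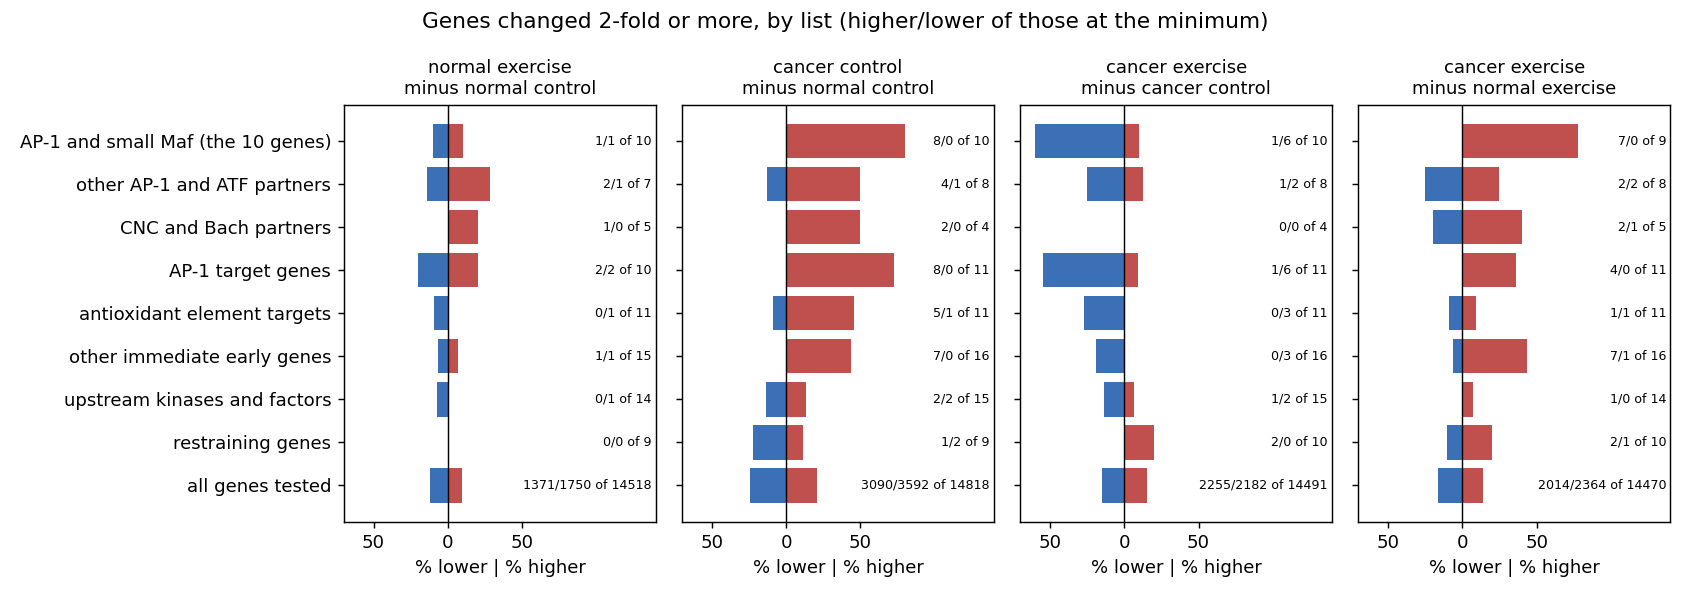
Percent of the genes of each list (large Maf genes not drawn) that were at least 2-fold higher (red, to the right) or lower (blue, to the left) in the 4 comparisons, with the counts of higher and lower genes and of genes at the minimum printed at the right. In cancer control minus normal control the 10 members reach 8 higher of 10 and the AP-1 targets 8 of 11, where 20.9% of all genes tested were higher.

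The libraries also differed in genes of other cell types, and the part of these cells in the results was not tested. The 10 muscle fiber genes, among them Acta1 and Tnni2, took 12.6% and 11.2% of reads in the control and exercised mice without a tumor and 7.57% and 8.06% in those with one. In cancer control against normal control 1 of them was higher and 4 were lower by at least 2-fold. Over all genes tested, 20.9% were higher and 24.2% lower. All 10 keratinocyte genes had reads in cancer control, with a summed normalized read count of 937, whereas the sum was 277 in normal control, 262 in normal exercise and 111 in cancer exercise, where 5, 5 and 6 of the 10 genes had 0 reads. Perp and Krt10, the most abundant by mean level, had reads in every library, while Krt1, Krt5, Krt15 and Flg2, named here after their values were seen, had 0 reads in the 3 libraries other than cancer control. The epidermis is a known site of AP-1 expression. Fos, Fosb, Fosl2, Junb, Maff and Mafk moved with this list in both comparisons that use cancer control. In cancer exercise against normal exercise, the keratinocyte sum was 262 in the tumor-free and 111 in the tumor-bearing library, and Fos, Jun, Junb, Jund, Atf3, Maff and Mafk were at least 2-fold higher.

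Neutrophil genes moved with the tumor, too. Of 10 genes, 9 were in the files, and their summed normalized read count was 81.2 and 161 in the control and exercised mice without a tumor and 2691 and 1994 in those with one, with 4, 4, 1 and 1 genes at 0 reads. S100a8 reached 17.1, 71.2, 2054 and 958 in the same order and S100a9 had 50.1, 75.2, 444 and 695. The lower sum in cancer exercise than in cancer control rested on S100a8, while S100a9 was higher in cancer exercise. The macrophage sum was 3212, 3164, 5484 and 4720, with 2 of 6 genes higher in cancer control than in normal control, where 20.9% of all genes tested were. C1qa reached 1132, 1094, 2651 and 2182 and Cd68, named here after its values were seen, 92.6, 94.7, 1024 and 319, an order of levels that most of the AP-1 and small Maf genes share, while Csf1r was lowest in cancer control. The part of macrophages in the result was not tested. Fibroblast genes, led by Dcn and Gsn, summed to 98297 in normal control and 44132 in cancer control. Adipocyte genes (Cfd, Adipoq) summed to 14242, 4492, 4351 and 9302, and Schwann cell genes (such as Mbp) to 4399, 2235, 4263 and 1419. Red cell genes (Hba-a1, Hbb-bs) took 4.22% of reads in cancer exercise and at most 2.08% in the others, with summed levels of 249006, 51510, 235229 and 504487. Sums of endothelial genes (Pecam1, Kdr) and of smooth muscle and pericyte genes (Acta2, Myh11) lay within 2-fold over the libraries. The satellite cell sum did so as well, at 185 to 264, but it rested on Cdh15 (117, 164, 229 and 231), while Myf5 had 41.4, 14.5, 6.48 and 33.5 and Pax7, named here after its values were seen, had 23, 27, 2 and 0 reads. In cancer control against normal control 2 of the 3 satellite cell genes at the minimum were lower, where 24.2% of all genes tested were. Lymphocyte genes (Cd3g, Cd79a) and simple epithelial genes (Krt18, Krt19) summed to at most 47.0.

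**Figure D5:**
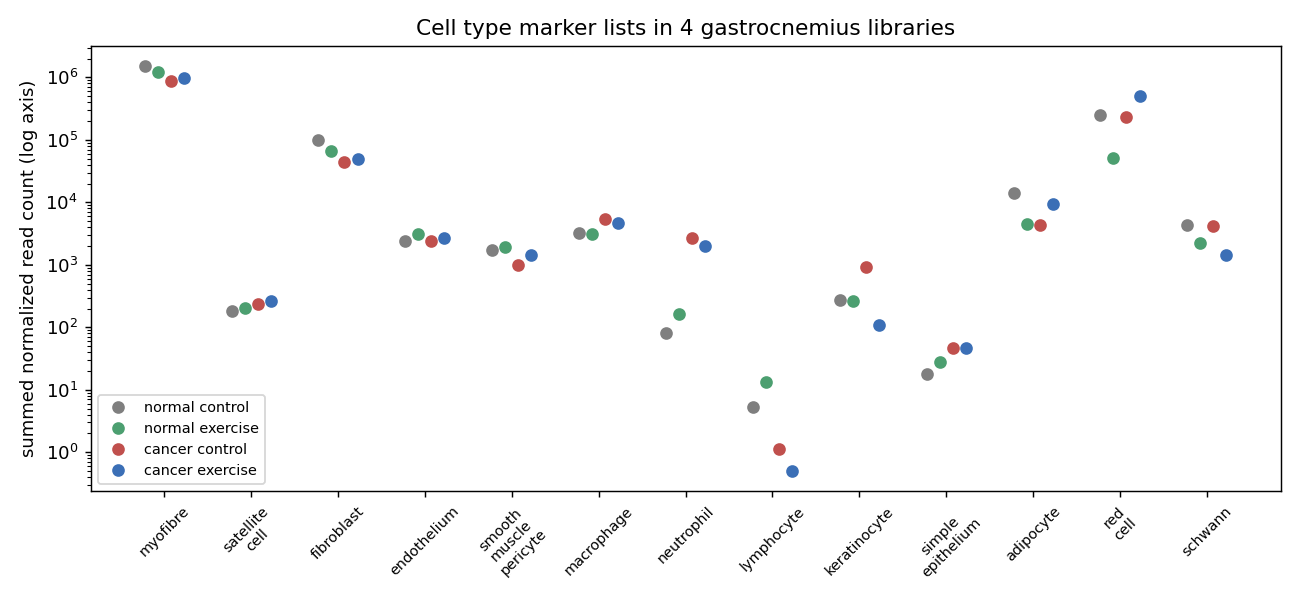
Summed normalized read counts (vertical axis, log scale) of 13 cell type marker lists, 1 point per library, with the lymphocyte sum of cancer exercise, which had 0 reads, drawn at the bottom. Keratinocyte genes stand highest in cancer control (937) and lowest in cancer exercise (111), and neutrophil genes are higher in both tumor libraries (2691 and 1994) than in the tumor-free libraries (81.2 and 161).

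Some counts could hold reads of a neighbour. In GENCODE vM21 (GRCm38), the 3′ end of Mafg overlaps Sirt7 on the same strand, and Junb and Mafk overlap Prdx2 and Tmem184a on the opposite strand. Junos, Gm11175 and Gm24748 lie opposite Jun, Jund and Atf3. Whether the authors counted by strand is not given in the sources used here. Prdx2 reached 931, 826, 756 and 1012 in the order set out above, with its lowest level where Junb had its highest, and Tmem184a had at most 7.49. Sirt7 had 42.6, 83.4, 147 and 104 in the same order, which is lower than Mafg in each library.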

How the data were processed

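Total RNA was made into QuantSeq 3′ mRNA libraries and sequenced as single-end reads. The authors used Bowtie2 for alignment and bedtools for coverage, and normalized by quantiles in edgeR (mm10 in the submitters' notes, versions not given in the sources used here). The deposited values are log2 of the authors' normalized read count plus a pseudocount of 1, for 23282 gene rows in each of 4 libraries. They are not counts, so no count test was run.

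Whole reads were rebuilt from the deposited log2 values by fitting 4 scaling factors and 1 dispersion (0.339), which explained 100% of values within 0.0006. The rebuilding was tested on data simulated under the same model, which cannot show that the authors' values follow that model. Totals were 11269895, 13226025, 10647437 and 11026549 reads in the control and exercised tumor-free and the control and exercised tumor-bearing groups. A count of 0 allows up to 3 reads. Reads have no molecular identifiers as far as stated, and intervals and floors hold counting error alone.

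Groups came from the sample titles. Differences were taken between deposited log2 values, and 4 comparisons were made. A gene was called changed at 2-fold or more where 1 of its libraries reached 4 normalized reads. With 1 library per group there is no test. The members and gene lists were chosen with earlier results of these data known, so neither is independent support. All members were named. Of each pathway list, the 3 most abundant genes were named, with every gene that changed at least 4-fold with 16 normalized reads. Of each marker list, the 2 most abundant were named, and for Fos and Maff the 3 genes nearest in profile. Some genes that this rule names are not reported here. Alternatives were scaling by total count, by TMM or by median of ratios, a pseudocount of 4 or 0.25, a minimum of 16, in both libraries or left out, folds of 4 and 1.5, and intervals widened by the dispersion index. Python 3 with numpy, pandas, scipy and matplotlib was used. Promoter letters are from RefSeq and untranslated regions from GENCODE.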

Additional observations from a re-analysis of the deposited data

Results flagged for a closer look

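Among the genes named in the report, 13 had a pair of differences that were each at least 2-fold but opposite in sign under the same contrast, giving 17 such results. With 1 library per group, none of these differences between differences was tested. Maff is the only one of the 10 transcription factor genes among them, with an exercise difference of 1.17 without a tumor and -1.57 with one, a gap of -2.73.

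The exercise difference also turned from higher to lower in Timp1 (1.29 and -1.70, gap -2.99), Ccl2 (1.20 and -1.74, gap -2.94), S100a8 (1.998 and -1.10, gap -3.10), Krt18 (2.14 and -1.36, gap -3.50) and Batf (3.61 and -1.57, gap -5.18). It turned from lower to higher in Myf5 (-1.45 and 2.21, gap 3.66), Cfd (-1.73 and 1.12, gap 2.85), Hba-a1 (-2.16 and 1.01, gap 3.17), Hbb-bs (-2.47 and 1.22, gap 3.69) and Batf2 (-2.39 and 3.05, gap 5.44). Krt18, Batf and Batf2 had at most 25, 14 and 7 reads in any library.

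The tumor difference was lower without exercise and higher with it in Myf5 (-2.50 and 1.16, gap 3.66), Cfd (-1.69 and 1.16, gap 2.85) and Batf2 (-2.35 and 3.08, gap 5.44). It was higher without exercise and lower with it in Perp (1.17 and -1.59, gap -2.76), Slc7a11 (1.01 and -2.65, gap -3.66) and Batf (3.21 and -1.97, gap -5.18).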

How the results depend on the processing

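With the fold threshold at 4, 0 of the 10 genes changed with exercise without a tumor, 2 with exercise in tumor-bearing mice and 3 with the tumor under exercise, against 2, 7 and 7 at 2-fold. In the same comparisons 1437 of 14518, 2058 of 14491 and 1951 of 14470 genes tested changed at 4-fold. At 1.5-fold, 4 changed with exercise without a tumor, as did 5508 of the 14518 genes tested. Of 40 alternative counts of changed members, 36 stayed within 1.5 times the reported count. With reads divided by the dispersion index, intervals excluded 0 for 1 gene instead of 7 with exercise without a tumor and for 5 instead of 10 with exercise in tumor-bearing mice. The share of all genes under this setting was not computed. Total count scaling moved the median of all genes by 0.16 with exercise without a tumor and by -0.15 with the tumor under exercise. Under it, the exercise difference with the tumor minus that without became 2.30 for Jun (2.53 reported) and turned sign to -0.10 for Jund (0.13 reported). Of 200 alternative log2 differences, 196 stayed within their counting interval. The call for Fosb with exercise in tumor-bearing mice was lost when both libraries had to reach a count of 4. No paired analysis was possible because each group had 1 library, and no replicate could be left out. Depth limits Fos and Fosb most, with 9 and 0 reads in their thinnest libraries.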

Other observations

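The genes closest in profile to Fos and Maff belong to none of the lists. Rhbdf2, which takes part in the release of growth factors and TNF from the cell surface, reached 28.8 and 10.4 in the control and exercised mice without a tumor and 163 and 52.0 in those with one. Cenpf, a kinetochore gene of dividing cells, had 18.1, 4.70, 110 and 32.5 in the same order. Tgif1, a repressor in the TGF-beta pathway and the third nearest to Maff, had 27.7, 46.0, 603 and 183. These values are a description over 4 libraries.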
